A study of Homo sapiens with 24 samples.

Results

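Wild-type (WT) Huh7 cells kept for 24 h in 800 µM palmitic acid were compared with WT Huh7 cells in basal medium (0 h), across all genes of the deposited table. The comparison takes 8 of the 24 libraries of the series, 4 at 24 h and 4 at 0 h, chosen by genotype and time in the sample titles. Huh7 is a human hepatoma line, and the other 16 libraries were WT cells at 48 h and cells labelled knockout (KO) for *ABHD6*, a serine hydrolase of monoacylglycerols, at 0, 24 and 48 h. No WT library was kept for 24 h in medium without the fatty acid, so its effect and that of culture time cannot be told apart, and the labels name no vehicle. Whether the 4 libraries of each group came from separate cultures is not stated, and the p-values therefore reflect variation between libraries that may be technical. In bulk RNA, fewer cells of a type and less RNA per cell cannot be told apart. The protocol text describes harvests on day 0 and day 1 only, and the times used here come from the titles and the design text.

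Palmitic acid is a saturated fatty acid that hepatocytes activate to acyl-CoA and then oxidise, desaturate or build into glycerolipids, phospholipids and ceramides. Saturated acyl chains in the membrane of the endoplasmic reticulum (ER) are known to activate the unfolded protein response, whose sensors IRE1, PERK and ATF6 raise ER chaperones and degradation factors. PERK also phosphorylates the initiation factor eIF2α, and the integrated stress response that follows works through the transcription factors ATF4, CHOP and ATF3.

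Among promoters of genes that were higher at 24 h, 7 stretches are shown as examples picked from the named genes with a match. Each holds a textbook response element. The ER stress response element (ERSE) was searched as CCAAT and CCACG separated by any 9 bases, ERSE-II as ATTGG, any base and CCACG, the CHOP-ATF4 element as TGATGNAA and the cyclic AMP response element (CRE) as TGACGTCA, on both strands of the 300 bases around each gene start. Sequences are from RefSeq on GRCh38.p14, written 5′ to 3′ on the strand of the gene, and capitals mark the fixed letters of the motif.
HSPA5 ERSE, chr9:125241361-125241439, minus strand: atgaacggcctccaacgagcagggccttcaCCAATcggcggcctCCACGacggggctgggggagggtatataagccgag
HSP90B1 ERSE, chr12:103930186-103930264, plus strand: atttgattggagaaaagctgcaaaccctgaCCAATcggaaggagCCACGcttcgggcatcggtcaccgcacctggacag
HERPUD1 ERSE-II, chr16:56931995-56932065, plus strand: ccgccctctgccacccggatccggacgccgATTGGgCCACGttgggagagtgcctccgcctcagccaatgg
HYOU1 ERSE-II on the other strand, chr11:119057350-119057420, minus strand: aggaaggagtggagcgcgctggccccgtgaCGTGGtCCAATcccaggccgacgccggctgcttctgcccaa
ATF3 CHOP-ATF4 element, chr1:212565186-212565253, plus strand: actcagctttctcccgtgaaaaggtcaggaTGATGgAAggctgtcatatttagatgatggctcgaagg
PPP1R15A CRE, chr19:48872333-48872400, plus strand: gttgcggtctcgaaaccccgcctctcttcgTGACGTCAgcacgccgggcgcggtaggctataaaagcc
AREG CRE, chr4:74445041-74445108, plus strand: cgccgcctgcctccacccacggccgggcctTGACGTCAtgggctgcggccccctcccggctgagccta

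ERSE was found in 2 of the 145 protein-coding genes called higher that had a promoter in the table, *HSPA5* and *HSP90B1*, against 14 of the 9532 tested protein-coding genes with a promoter there (0.147%) and 22 of all 27305 promoters (0.0806%). ERSE-II was found in 2 of the 145, *HERPUD1* and *HYOU1*, against 10 of 9532 (0.105%) and 15 of 27305 (0.0549%). The CHOP-ATF4 element was in 2 of 145 (1.38%), against 1.69% of the tested protein-coding genes and 3.67% of all promoters. CRE was in 4 of 145 (2.76%), against 3.26% of the tested protein-coding genes and 1.98% of all promoters. The antioxidant element (TGAC and GCA separated by any 3 bases) was in 7 of 145 (4.83%), against 2.72% of the tested protein-coding genes and 3.26% of all promoters. Of the 204 protein-coding genes called lower with a promoter there, 0% held ERSE, 0.49% ERSE-II and 2.45% the CHOP-ATF4 element. CRE and the antioxidant element were each in 3.92% of them. Matches not shown include a CRE in *LTBP1* and an antioxidant element in *CCDC200* and in *PPP1R15A*. A match describes these letters in this window and is not a measured binding site.

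The values are FPKM (fragments per kilobase of transcript, scaled to the mapped fragments), made by the authors. Steps between the smallest values placed the fragments behind them at 581395 to 649351 per library at 24 h and 399202 to 471698 at 0 h, groups that do not overlap. A single fragment on a transcript of 2 kb was then worth 0.77 to 0.86 FPKM at 24 h and 1.06 to 1.25 FPKM at 0 h, and 14084 to 14272 genes at 24 h against 12894 to 13572 at 0 h were above 0. Exact zeros are not evidence of absence here: *EEF1A1*, an elongation factor used by every cell, had 0 FPKM in each of the 24 libraries. The 10 liver markers fixed for the cell type were all above the test floor. Among them *ALB* was at 163 and 146 FPKM (means at 24 h and 0 h) and *SERPINA1* at 301 and 346. In the same order *GPC3* was at 490 and 557 and *HNF4A* at 7.34 and 12.3, and *FGB* was called lower. The stellate, immune and endothelial markers had 3, 4 and 3 of 10 members above the test floor. The immune marker *LYZ*, whose exons overlap an opposite-strand gene, was at 159 and 119 FPKM in that order. None of the stellate, immune and endothelial markers was called by limma, and 0, 2 and 0 of them had an unadjusted p under 0.05. Of 8 tested biliary and progenitor markers 1, *SOX4*, was called higher. *ABHD6* was listed at 0.785, 0, 0 and 0 FPKM in the WT libraries at 24 h and 1.16, 0, 0 and 0 FPKM at 0 h. It was above 0 in 4 of 12 KO libraries (0.759 FPKM at 24 h, and 0.718, 0.693 and 0.771 FPKM at 48 h) and in 3 of 12 WT libraries, so its row does not check the KO label.

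The kit kept strand, but which strand setting was used in counting is not stated in the available sources. Rows annotated as antisense held 47.0% ± 1.55 of the summed FPKM at 24 h and 57.0% ± 0.867 at 0 h (SD, n = 4 each). Of 1445 protein-coding genes with a tested antisense-annotated partner, 979 (67.8%) had the partner row higher than their own. Whether a gene's row holds its own reads or stray reads of the other strand was not tested. It bears on every gene below; those marked ° share exon bases with a gene on the opposite strand.

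limma called 701 of 17252 tested genes (4.06%) at a Benjamini-Hochberg adjusted p under 0.05, 252 higher at 24 h (1.46%) and 449 lower (2.6%), and 415 of the 701 changed at least 2-fold (2.41%). At an unadjusted p under 0.05 there were 2733 genes (15.8%). Changes are given as log2 fold change ± standard error (SE) on the log2(FPKM + 0.5) scale, which understates the change of low genes. The split between directions depended on scaling: median-of-ratios rescaling gave 311 higher and 362 lower, with a median over all tested genes of 0.05 against 0 unscaled, and quantile normalization gave 296 and 248. In a fit of the 8 WT libraries alone 355 genes were called, and without WT 24 h replicate 3 the count was 453. Of the 701, 349 kept their call in each of the 8 fits that left out 1 of these libraries, and 39 had 1 group listed at 0 throughout. All 4 libraries at 24 h lay above all 4 at 0 h for 631 genes (3.66%) and below them for 958 (5.55%). Counts of list members called below stand against 1.46% of all genes tested called higher and 2.6% called lower.

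Genes of ER protein folding stood higher at 24 h, led by *HSPA5*, the main ER chaperone (BiP). *HSPA5* was at 108, 115, 188 and 197 FPKM in the 4 libraries at 24 h, against 54.4, 47.6, 50.8 and 69.7 FPKM at 0 h. Every library at 24 h lay above every library at 0 h, a change of 1.41 ± 0.19 (limma adjusted p = 5.16e-05). *HERPUD1*, a component of ER-associated degradation, was at 22.6, 18.4, 35.1 and 17.8 FPKM at 24 h and at 0, 4.31, 0 and 0 FPKM at 0 h. The groups did not overlap (4.71 ± 0.84, adjusted p = 0.00137), and the fold rests on a single 0 h library above 0: it was 6.46 with a pseudocount of 0.1 and 3.96 with a pseudocount of 1.

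Among 22 tested ER chaperones and folding enzymes 18 changes were positive and 4 negative, with a median of 0.71 against 0 over all genes tested. *CALR*° was among the negative ones (-0.41 ± 0.16, not called). Of the 9 members without opposite-strand overlap 1, *HSPA5*, was called higher. Of all 22, 4 were called higher and none lower, where 1.46% of all genes tested were called higher. Besides *HSPA5* they were *HSP90B1*° (GRP94), *HYOU1*°, a large ER chaperone, and *PPIB*°, an ER prolyl isomerase. *HSP90B1* was at 302, 321, 509 and 478 FPKM at 24 h, against 257, 201, 225 and 261 FPKM at 0 h (0.74 ± 0.18, adjusted p = 0.021). *HYOU1* was at 19.8, 37.9, 42.7 and 61.4 FPKM at 24 h, against 20.7, 17.2, 24.3 and 12.3 FPKM at 0 h (1.03 ± 0.29, adjusted p = 0.0409). Its groups overlapped through WT 24 h replicate 0, while those of *HSP90B1* and *PPIB* (0.78 ± 0.21) did not. Leaving out 1 library ended the calls of *HSP90B1* in 4 of 8 fits (adjusted p up to 0.0886), of *HYOU1* in 6 (up to 0.159) and of *PPIB* in 3 (up to 0.118), and *HSPA5* was the 1 member called in the fit of the 8 WT libraries alone.

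The ER quality control and transport lists had fewer calls, where 1.46% of all genes tested were called higher. *HERPUD1* was the 1 call of 17 in ER-associated degradation (median 0.45), and *ARFGAP3*, which acts on the Arf1 GTPase of COPI vesicles, the 1 of 32 in translocation and vesicle transport (median 0.51; 2.89 ± 0.64). None of 11 tested stress sensors and factors was called by limma, also with each library left out, and 0 had an unadjusted p under 0.05 (median 0.03). *XBP1*, the transcription factor spliced by IRE1, was at 74.7, 126, 64.1 and 72.3 FPKM at 24 h and at 127, 168, 51.4 and 79.1 FPKM at 0 h, groups that overlap widely. *MANF*, a secreted ER stress protein, did not overlap between groups, with 21.9 to 70.1 FPKM at 24 h and 9.4 to 19.9 FPKM at 0 h, and missed the threshold (1.45 ± 0.47, adjusted p = 0.0922).

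In the integrated stress response 4 of 25 tested factors rose and none fell, with a median of 0.54, where 1.46% of all genes tested were called higher. *PPP1R15A* (GADD34), which directs dephosphorylation of eIF2α, was at 24.4, 48.6, 62 and 46.8 FPKM at 24 h, against 5.25, 5.56, 4.16 and 8.02 FPKM at 0 h. Its lowest library at 24 h was above its highest at 0 h (2.84 ± 0.30, adjusted p = 1.6e-06). *ATF3*, a stress-induced transcription factor, was at 13.2, 9.39, 16.5 and 15.7 FPKM at 24 h and at 0, 1.16, 6.32 and 0 FPKM at 0 h (3.42 ± 0.64, adjusted p = 0.00225). *CEBPG*, a partner of ATF4 in the bZIP family, had 11.2 to 19.7 FPKM at 24 h and 3.99 to 7.14 FPKM at 0 h (1.38 ± 0.32, adjusted p = 0.0129). *DDIT3*° (CHOP) was at 26.8, 42.5, 48.7 and 36.5 FPKM at 24 h, against 10.7, 18.2, 31 and 15.3 FPKM at 0 h (1.09 ± 0.31, adjusted p = 0.0445). Its groups overlapped and its call was lost in 6 of 8 fits without 1 library (adjusted p up to 0.158). In the fit of the 8 WT libraries alone 2 factors of the list were called, which did not include *ATF3*, *CEBPG* and *DDIT3*.

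*ATF4* itself was at 93.8, 74.8, 88.6 and 74.6 FPKM at 24 h and at 70.6, 57.2, 31.8 and 60 FPKM at 0 h. Each 24 h library was above each 0 h library, and the difference missed the threshold (0.64 ± 0.23, adjusted p = 0.131). The pseudokinase *TRIB3*, which restrains ATF4 signalling, was near it at 1.04 ± 0.30 (adjusted p = 0.0546), and the secreted stress cytokine *GDF15* was at 30, 7.03, 9.77 and 16.9 FPKM at 24 h against 7.88, 8.18, 0 and 0 FPKM at 0 h (2.79 ± 1.07, adjusted p = 0.178). Of 32 tested amino acid enzymes and transporters that ATF4 is known to induce, 2 rose (1.46% of all genes tested did), with a median of 0.46. They were *PSAT1*, an aminotransferase of serine synthesis (1.06 ± 0.24, adjusted p = 0.0107), and *SLC7A11*°, the cystine transporter (1.16 ± 0.30, adjusted p = 0.0296), whose call was lost in 4 of 8 fits without 1 library (up to 0.0888). Neither was called in the fit of the 8 WT libraries alone.

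**Figure D1:**
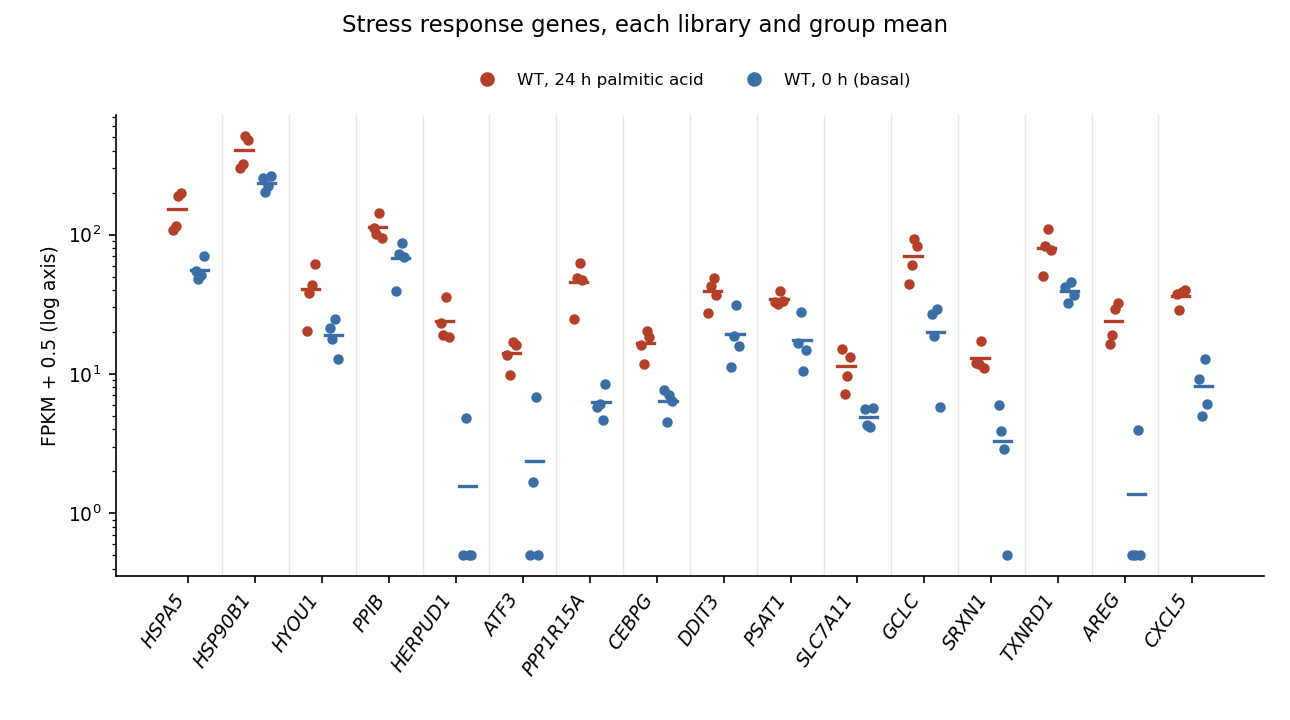
FPKM + 0.5 on a log axis for 16 called genes, those of the ER, integrated and oxidative stress responses with *AREG* and *CXCL5*, in each of 4 WT libraries at 24 h (left, red) and 4 at 0 h (right, blue), with group means as bars. The groups of *HSPA5* and *PPP1R15A* are apart, those of *HYOU1* and *DDIT3* overlap, and *HERPUD1* and *AREG* are listed at 0 in 3 of 4 libraries at 0 h.

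Antioxidant genes under the transcription factor NRF2 had 4 of 31 members higher and none lower (median 0.39), where 1.46% of all genes tested were called higher. *GCLC*°, the catalytic subunit of the first enzyme of glutathione synthesis, was at 43.6, 60, 93.1 and 82.9 FPKM at 24 h, against 26.2, 18.3, 28.7 and 5.25 FPKM at 0 h. *TXNRD1*, cytosolic thioredoxin reductase, was at 49.7, 81.9, 110 and 77.6 FPKM at 24 h and at 41.7, 31.9, 45.1 and 36.6 FPKM at 0 h. Groups of both genes were apart, with changes of 1.99 ± 0.46 (adjusted p = 0.013) and 0.99 ± 0.20 (adjusted p = 0.00513). *SRXN1*, which repairs oxidised peroxiredoxins, rose by 2.42 ± 0.52 (adjusted p = 0.0067), and *FTH1*°, the ferritin heavy chain, by 0.71 ± 0.18 with overlapping groups (adjusted p = 0.0203). *NQO1*°, a quinone reductase often used to mark NRF2 activity, was at 26.7, 11.5, 20 and 27 FPKM at 24 h against 20.5, 9.85, 10.6 and 10.5 FPKM at 0 h and was not called (0.70 ± 0.40). The call of *FTH1* was lost in 5 of 8 fits without 1 library (up to 0.0973) and that of *GCLC* without WT 24 h replicate 2 (0.0502) or 3; none of the list was called in the fit of the 8 WT libraries alone.

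Among secreted signals, *AREG* (amphiregulin), a ligand of the EGF receptor, was at 15.8, 18.4, 28.5 and 31.7 FPKM at 24 h and at 0, 0, 3.45 and 0 FPKM at 0 h. The groups were far apart (4.79 ± 0.65, limma adjusted p = 6.66e-05). With pseudocounts of 0.1 and 1 the change was 6.54 and 4.03. *AREG* was the 1 call among 8 tested genes of its list, whose median was -0.47. That list holds ligands and receptors of the EGF receptor family and the proteases *ADAM10*° and *ADAM17*°. The receptors *EGFR*° (0.24 ± 0.49) and *ERBB3* (-0.64 ± 0.48) overlapped between groups. The receptor gene *ERBB2*° averaged 7.78 FPKM at 24 h and 23.3 FPKM at 0 h and was not called (-2.37 ± 0.84, adjusted p = 0.132). *CXCL5*, a neutrophil chemokine, was at 37.1, 28.1, 38.4 and 39.7 FPKM at 24 h, against 8.71, 4.51, 12.2 and 5.53 FPKM at 0 h (2.22 ± 0.28, adjusted p = 3.07e-05). It was the 1 call of 24 NF-kB factors, chemokines and cytokines (median 0.52). Near the threshold in that list, *CXCL8* was at 4.65 to 12.8 FPKM at 24 h against 0 to 1.57 FPKM at 0 h (adjusted p = 0.0632) and *IL32* at 8.22 to 15.9 FPKM at 24 h against 0 to 6.57 FPKM at 0 h (adjusted p = 0.0556), both without overlap. With a floor of 2 FPKM or a pseudocount of 1 the list had 3 calls.

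Immediate early genes moved in both directions, 2 of 24 higher and 1 lower (median 0.04). *KLF4*, a zinc finger transcription factor, was at 1.92, 6.62, 5.1 and 4.62 FPKM at 24 h and at a listed 0 FPKM in every 0 h library. The WT 0 h libraries alone would not bring *KLF4* to the test floor, and such zeros are not evidence of absence. The log2 fold change of *KLF4* was 5.42 with a pseudocount of 0.1 and 2.39 with a pseudocount of 1. *KLF6*, its relative, rose by 1.54 ± 0.42 with overlapping groups, and *DUSP6*°, the phosphatase of ERK, was lower at 10.1, 5.1, 3.59 and 3.19 FPKM at 24 h against 21.7, 18.1, 19.8 and 27.5 FPKM at 0 h (-2.01 ± 0.53, adjusted p = 0.0329). Both of these calls were lost in most fits without 1 library (6 of 8 for *KLF6*, 7 of 8 for *DUSP6*; adjusted p up to 0.128 and 0.107). *FOS* and *EGR1*, both below the floor of the test, had a listed 0 FPKM in each library at 24 h, and *FOS* also at 0 h.

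**Figure D2:**
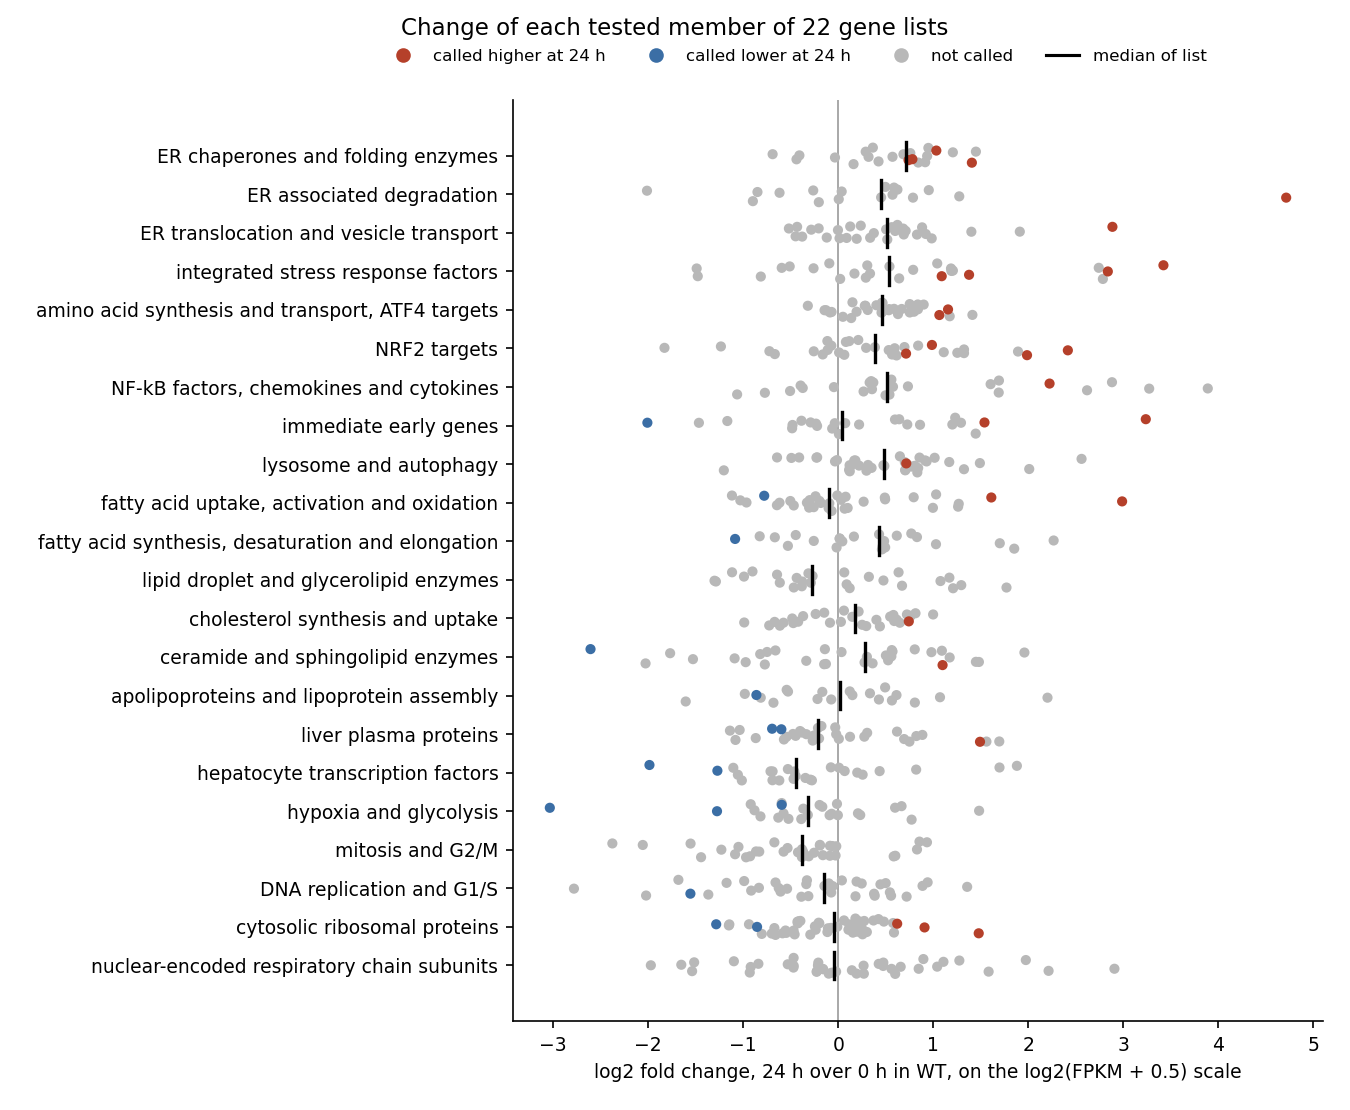
log2 fold change, 24 h over 0 h in WT, of every tested member of 22 gene lists. Each dot is a gene (red, called higher; blue, called lower; grey, not called) and the black bar is the list's median. Among the 22 lists drawn, of 40 in all, the ER chaperone list has the median farthest from 0 (0.71). The mitosis and hepatocyte factor lists have medians of -0.38 and -0.45. Lists not drawn include the mitochondrially encoded genes (2.04) and the 3 tested stellate and fibroblast markers (0.75).

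Genes that handle the fatty acid changed singly. Of 33 tested genes of uptake, activation and oxidation 2 were higher and 1 lower (1.46% and 2.6% of all genes tested), with a median of -0.09. *ACSL1*, which activates long-chain fatty acids to acyl-CoA, was at 2.71, 2.54, 4.74 and 4.34 FPKM at 24 h and at a listed 0 FPKM in every 0 h library. Its WT 0 h libraries alone would not reach the test floor, and such zeros are not evidence of absence. The log2 fold change of *ACSL1* was 5.15 with a pseudocount of 0.1 and 2.16 with a pseudocount of 1. *ETFA*, a subunit of the flavoprotein that takes electrons from the acyl-CoA dehydrogenases, was at 59.9, 35.1, 54.3 and 73.9 FPKM at 24 h, against 15.5, 15.8, 16.7 and 21.8 FPKM at 0 h (1.61 ± 0.32, adjusted p = 0.00413). *ETFDH*°, the oxidoreductase that passes those electrons to ubiquinone, was lower at 136, 104, 114 and 114 FPKM at 24 h against 196, 202, 236 and 172 FPKM at 0 h (-0.78 ± 0.17, adjusted p = 0.00647; 0.061 after quantile normalization). Neither pair of groups overlapped. *CPT1A*, which controls entry of acyl chains into mitochondria, had 1.73 to 3.71 FPKM at 24 h and 0.403 to 2.12 FPKM at 0 h, overlapping (1.27 ± 0.54, adjusted p = 0.229). *FABP1*, the liver fatty acid binding protein, averaged 450 FPKM at 24 h and 703 FPKM at 0 h (-0.65 ± 0.19, adjusted p = 0.0534).

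In fatty acid synthesis and desaturation 1 of 23 members was called. *FADS1*°, the delta-5 desaturase of polyunsaturated fatty acids, was at 350, 426, 276 and 449 FPKM at 24 h, against 793, 722, 678 and 968 FPKM at 0 h, with no overlap (-1.09 ± 0.17, adjusted p = 0.000382). *SCD*, which desaturates palmitoyl-CoA and stearoyl-CoA, was at 170, 137, 126 and 141 FPKM at 24 h against 108, 108, 132 and 170 FPKM at 0 h, and its groups overlapped (0.17 ± 0.15, adjusted p = 0.663). None of 26 lipid droplet and glycerolipid genes was called by limma (median -0.28), and 3 had an unadjusted p under 0.05. Among them the droplet coat gene *PLIN2* was at 13.9, 23.5, 11.3 and 15 FPKM at 24 h and at 2.74, 2.53, 13.1 and 12.6 FPKM at 0 h, so that the 0 h libraries split into a low and a high pair (1.29 ± 0.42, adjusted p = 0.0951).

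Of 30 cholesterol genes *CYP51A1*°, the lanosterol demethylase, rose at 300, 185, 206 and 197 FPKM at 24 h against 144, 105, 121 and 157 FPKM at 0 h (0.74 ± 0.16, adjusted p = 0.0058), and the list's median was 0.18. The call of *CYP51A1* was lost in the fit of the 8 WT libraries alone (limma adjusted p = 0.125) and without a variance trend (0.0814). *HMGCS1*°, the first committed enzyme of the pathway, was at 78.1 to 133 FPKM at 24 h against 44.6 to 73 FPKM at 0 h and just missed the threshold (0.76 ± 0.23, adjusted p = 0.0612). With either rescaling 3 members of the list were called. Among 31 sphingolipid genes 1 rose and 1 fell: *ASAH1*°, lysosomal acid ceramidase, was at 102, 62.2, 106 and 71.9 FPKM at 24 h against 59, 24.3, 60 and 25.9 FPKM at 0 h (1.10 ± 0.25, adjusted p = 0.0131). *SPTLC3*, a subunit of the enzyme that condenses acyl-CoA with serine, was at 0, 0.763, 0.237 and 0.698 FPKM at 24 h against 4.82, 5.87, 4.01 and 4.52 FPKM at 0 h (-2.61 ± 0.70, adjusted p = 0.0335). Both had groups apart, but the call of *ASAH1* was lost in 3 fits without 1 library (up to 0.0614) and that of *SPTLC3* in 7 of 8 (up to 0.0975). The fit of the 8 WT libraries alone also lost the call of *ASAH1* (limma adjusted p = 0.228). *LPCAT3*°, which reacylates phospholipids with polyunsaturated chains, was the 1 call of 25 phospholipid genes (-0.45 ± 0.13, adjusted p = 0.0445). That call was lost with both rescalings (adjusted p = 0.089 and 0.55) and in the fit of the 8 WT libraries alone (0.109). It was also lost in several fits without 1 library (up to 0.134).

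Secreted liver proteins gave a few calls in either direction. Of 33 tested plasma protein genes 1 rose and 2 fell (median -0.21), and of 20 apolipoprotein genes 1 fell (median 0.02). *APOA1*°, the main protein of high-density lipoprotein, was at 59.7, 53, 39.6 and 37.3 FPKM at 24 h, against 88.7, 92.7, 77.4 and 81.6 FPKM at 0 h (-0.86 ± 0.19, adjusted p = 0.0102). *FGB*, the fibrinogen beta chain, was at 103, 101, 100 and 94 FPKM at 24 h against 170, 124, 146 and 168 FPKM at 0 h (-0.60 ± 0.16, adjusted p = 0.0323). Neither pair of groups overlapped. *CP*° (ceruloplasmin) fell by 0.70 ± 0.19 and complement *C5* rose by 1.49 ± 0.37. *FGB*, *CP* and *C5* lost their calls in 5, 6 and 4 of 8 fits without 1 library (adjusted p up to 0.0939, 0.139 and 0.0708), and *FGB* and *CP* also with median-of-ratios rescaling. The fit of the 8 WT libraries alone lost the calls of *APOA1*, *CP* and *C5* (limma adjusted p = 0.0528, 0.0907 and 0.0736). *SPINK1*, a secreted trypsin inhibitor, was at 249, 298, 271 and 231 FPKM at 24 h against 35.8, 0, 98.8 and 52.7 FPKM at 0 h (3.89 ± 1.11, adjusted p = 0.0479). Its call was lost in 6 of 8 fits without 1 library, and without WT 0 h replicate 1 its fold change was 2.18 (adjusted p = 0.147).

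Of 25 hepatocyte transcription factors 2 fell and none rose (median -0.45), where 2.6% of all genes tested were called lower. Both share exon bases with an opposite-strand gene, and 0 of the 15 tested members without such overlap were called lower. *NR1I3*° (the constitutive androstane receptor) was at 216, 331, 198 and 220 FPKM at 24 h, against 618, 537, 527 and 609 FPKM at 0 h (-1.27 ± 0.19, adjusted p = 0.000216). The pioneer factor *FOXA1*° was at 2.21, 2.12, 5.23 and 3.75 FPKM at 24 h against 21.4, 17.7, 11.1 and 8.71 FPKM at 0 h (-1.99 ± 0.44, adjusted p = 0.00965). Both were apart between groups, and the call of *FOXA1* was lost in the fit of the 8 WT libraries alone (limma adjusted p = 0.0631). *HNF4A* was at 5.25, 11.1, 7.24 and 5.75 FPKM at 24 h against 13.9, 11.9, 16.2 and 7.3 FPKM at 0 h, which overlap (-0.71 ± 0.35, adjusted p = 0.328). The called biliary and progenitor marker *SOX4*°, a progenitor transcription factor, was at 16.8, 13.9, 17.7 and 16.2 FPKM at 24 h, against 8.79, 2.77, 2.98 and 6.6 FPKM at 0 h (1.66 ± 0.30, adjusted p = 0.00164; 0.0886 in the fit of the 8 WT libraries alone). The summed level of that list's 10 genes was 302 to 411 FPKM at 24 h and 164 to 290 FPKM at 0 h. Most of this sum was *CD24*, which averaged 314 FPKM at 24 h and 191 FPKM at 0 h and was not called (limma adjusted p = 0.146). The median change of the 8 tested members was 0.03, with 4 positive and 3 negative. The part of this list in the falls of *NR1I3* and *FOXA1* was not tested.

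Of 25 tested hypoxia and glycolysis genes 3 were lower and none higher (median -0.32), where 2.6% of all genes tested were called lower. All 3 share exon bases with an opposite-strand gene, and 0 of the 14 tested members without such overlap were called lower. Among all protein-coding genes 3.86% with such overlap and 0.722% without it were called lower. *SLC2A1*°, the glucose transporter GLUT1, was at 4.99, 13.2, 0.864 and 8.2 FPKM at 24 h, against 45.9, 51.1, 39.2 and 41.9 FPKM at 0 h (-3.04 ± 0.65, adjusted p = 0.00716). *GAPDH*° was at 228, 198, 191 and 174 FPKM at 24 h against 281, 309, 257 and 351 FPKM at 0 h (-0.59 ± 0.13, adjusted p = 0.0109), and *ALDOA*°, fructose-bisphosphate aldolase, changed by -1.28 ± 0.33 with overlapping groups. The call of *GAPDH* was lost with median-of-ratios rescaling (0.051) and quantile normalization (0.32), that of *ALDOA* in 6 of 8 fits without 1 library (up to 0.101), and *LDHA* (-0.58 ± 0.17, adjusted p = 0.0675) was not called. None of the list was called in the fit of the 8 WT libraries alone.

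Few cell division genes were called lower, against 2.6% of all genes tested. By limma 0 of 33 mitosis and G2/M genes were called (median -0.38, 28 of 33 negative; 7 at an unadjusted p under 0.05), and 1 of 35 replication and G1/S genes, *MCM3*, a subunit of the replicative helicase (median -0.15). *MCM3* was at 8.92, 10.4, 11.3 and 16.8 FPKM at 24 h, against 23.9, 37.7, 36.3 and 45.2 FPKM at 0 h (-1.56 ± 0.35, adjusted p = 0.0102). *CDK1*, the mitotic kinase, was at 4.49, 2.23, 3.92 and 4.24 FPKM at 24 h against 19.5, 7.25, 8.78 and 10.4 FPKM at 0 h, apart between groups and below the call (-1.44 ± 0.50, adjusted p = 0.126). Outside the lists, *INCENP*, a subunit of the Aurora B complex (-2.25 ± 0.49), and the linker histone *HIST1H1C* (-1.94 ± 0.42) were among the 12 largest falls of protein-coding genes without opposite-strand overlap.

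Proteostasis genes outside the ER were mixed. *SQSTM1*°, the autophagy receptor p62, was at 148, 195, 160 and 155 FPKM at 24 h, against 119, 75.4, 100 and 109 FPKM at 0 h (0.72 ± 0.18, adjusted p = 0.0203), and was the 1 call of 39 lysosome and autophagy genes, whose median was 0.49. Its call was lost without WT 0 h replicate 1 (0.0857) or WT 24 h replicate 1 (0.0676). It was also lost in the fit of the 8 WT libraries alone (limma adjusted p = 0.0814) and without a variance trend (0.119). In the cytosolic heat shock list 2 of 25 fell and none rose (median -0.27). Both share exon bases with an opposite-strand gene, and 0 of the 16 tested members without such overlap were called lower. *FKBP4*°, a co-chaperone of HSP90, was at 11.3, 10.4, 10.2 and 8.11 FPKM at 24 h against 60.3, 169, 34 and 64.8 FPKM at 0 h (-2.73 ± 0.52, adjusted p = 0.00244). The chaperonin subunit *TCP1*° was at 983 to 1111 FPKM at 24 h against 1321 to 1441 FPKM at 0 h (-0.39 ± 0.09, adjusted p = 0.0152), which was lost without WT 24 h replicate 3 (0.0582) and after quantile normalization (0.25). Of 27 apoptosis genes *BMF*°, a BH3-only member of the BCL2 family, and *CYCS*, cytochrome c, were called higher (2.18 ± 0.58 and 0.92 ± 0.23), each lost in 5 of 8 fits without 1 library (up to 0.101 and 0.0798). Ribosomal protein genes had 3 of 52 higher and 2 lower (1.46% and 2.6% of all genes tested), with a median of -0.04. None of 40 nuclear-encoded respiratory chain genes was called by limma (median -0.04, 9 at an unadjusted p under 0.05).

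Transcripts of the mitochondrial genome held 12.3% ± 0.913 of the summed FPKM at 24 h and 3.53% ± 0.291 at 0 h (SD, n = 4 each; exact permutation test, two-sided, p = 0.0286, the smallest that 4 against 4 allows). Of the 13 protein genes 12 rose, with a list median of 2.04. *MT-CO3*, a subunit of cytochrome c oxidase, was at 4688, 4795, 4765 and 5370 FPKM at 24 h, against 993, 1055, 1230 and 1080 FPKM at 0 h (2.17 ± 0.12, adjusted p = 3.61e-11). *MT-ND5*, of complex I, was at 11908, 12775, 11117 and 13258 FPKM at 24 h against 3158, 3212, 3683 and 3307 FPKM at 0 h (1.88 ± 0.13, adjusted p = 2.22e-09). *MT-ND6*, the 1 protein gene on the other strand of the circle, moved least among the 12 at 0.86 ± 0.15 and had the highest FPKM of the set at 0 h (17572 to 23758 FPKM; 31780 to 44317 FPKM at 24 h). *MT-CO1* had a listed 0 FPKM in each 24 h library, and was at 464, 348, 387 and 443 FPKM at 0 h. It was also listed at 0 in every KO library at 24 h and in both genotypes at 48 h. FPKM is relative to the mapped fragments, so more mitochondrial fragments can lower the FPKM of all other genes. Whether the authors' scaling corrected for this is not given. A share of summed FPKM is also not a share of mapped fragments, since short genes weigh more in it. The size of any such shift was not tested.

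**Figure D3:**
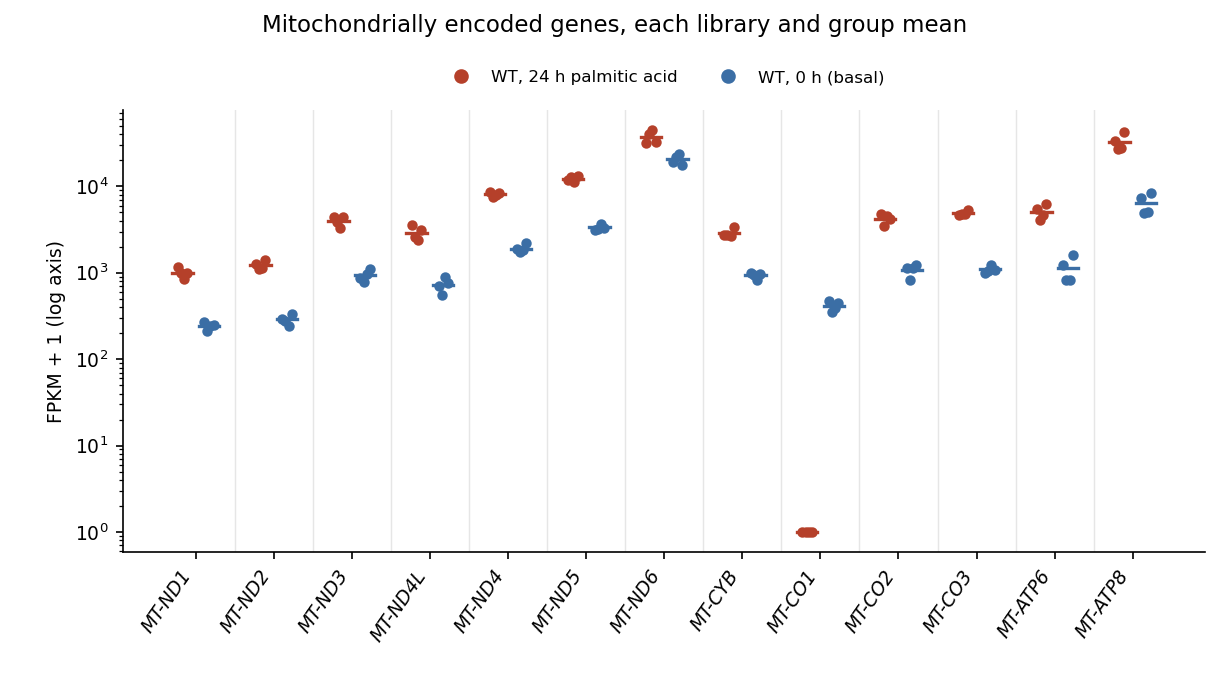
FPKM + 1 on a log axis for the 13 protein genes of the mitochondrial genome in each WT library at 24 h (left, red) and 0 h (right, blue), with group means as bars. The groups are apart for every gene; *MT-CO1* is listed at 0 at 24 h, drawn at the bottom of the axis.

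Outside the lists, the highest folds of protein-coding genes without opposite-strand overlap included a neighbouring pair on the plus strand of chromosome 9 (GRCh38), *CYSRT1* at chr9:137224635-137226311 and *RNF224*, a RING finger protein, at chr9:137227271-137229638. *CYSRT1* was at 69.5, 87.1, 76.4 and 74.9 FPKM at 24 h, against 0, 9.99, 2.39 and 2.18 FPKM at 0 h (4.93 ± 0.68, adjusted p = 8.61e-05). *RNF224* was at 80.9, 91.7, 77.6 and 72.2 FPKM at 24 h against 5.93, 5.18, 7.37 and 8.26 FPKM at 0 h (3.51 ± 0.20, adjusted p = 6.36e-11). The groups of each gene were far apart, and their mean levels per length were 77 and 80.6 FPKM at 24 h. The same rule named *LILRB3*, an inhibitory leukocyte receptor (4.08 ± 0.65), and *HSF2*, a heat shock transcription factor (3.32 ± 0.78), among others. On the lower side it named *SCAMP3*, a carrier protein of endosomal membranes, at 0, 0, 0 and 2.28 FPKM at 24 h against 10.8, 17.2, 5.13 and 15.7 FPKM at 0 h (-3.92 ± 0.52, adjusted p = 5.3e-05). It also named *NAGS*, which makes the activator of the urea cycle (-2.89 ± 0.68), and *POLD2*, a subunit of DNA polymerase delta (-1.68 ± 0.47). The call of *HSF2* was lost without WT 24 h replicate 2 (0.0574) or WT 0 h replicate 1 (0.0502). That of *NAGS* was lost without WT 24 h replicate 3 (0.0692) or WT 0 h replicate 2 (0.0526), and that of *POLD2* in 7 of 8 fits (up to 0.153). The fit of the 8 WT libraries alone lost the calls of *LILRB3*, *HSF2*, *SCAMP3*, *NAGS* and *POLD2* (limma adjusted p = 0.0599, 0.0892, 0.0509, 0.116 and 0.0892).

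Calls fell unevenly over classes of rows. Among protein-coding genes, 116 of 6786 that overlap no opposite-strand gene were higher and 49 lower, while of 5257 with such overlap 76 were higher and 203 lower. Of 2228 antisense-annotated rows 35 were higher and 149 lower. When limma was fitted to genes without overlap alone, 104 were called, 74 higher and 30 lower. The share of antisense rows was lower at 24 h in each library (exact permutation test, two-sided, p = 0.0286). The pairs described next were chosen after their values were seen.

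Among rows of at least 20 FPKM with no clone-type or antisense name, those with the lowest limma t after *MT-CO1* were 7 protein-coding genes, each opposite to another. *ITFG2*° was at 455, 625, 554 and 565 FPKM at 24 h, against 1633, 1416, 1353 and 1307 FPKM at 0 h (-1.38 ± 0.10, adjusted p = 4.01e-09). It overlaps *FOXM1*, the transcription factor of the G2/M programme, whose own row averaged 21.8 FPKM at 24 h and 13.4 FPKM at 0 h (0.69 ± 0.37, not called). *LCORL*° fell by 1.77 ± 0.16 opposite *NCAPG*, a condensin subunit (0.39 ± 0.16, not called; adjusted p = 0.018 after quantile normalization), and *EXOSC9*° by 1.62 ± 0.19 opposite *CCNA2*, cyclin A2 (-0.03 for its own row). *ADCY3*°, *FAM149B1*°, *MMACHC*° and *SHLD2*° fell by 1.13 ± 0.12, 1.07 ± 0.11, 0.92 ± 0.09 and 1.41 ± 0.17, opposite *CENPO*, *DNAJC9*, *PRDX1* and *GLUD1*, none of which was called. All 7 falls had groups apart and kept their calls in all 8 fits without 1 library.

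Antisense-annotated rows included the largest values of the table. *AC011603.2*, opposite the alpha tubulin gene *TUBA1B*, was at 42020 to 55387 FPKM at 24 h and 82273 to 95423 FPKM at 0 h (-0.83 ± 0.09), where *TUBA1B* averaged 106 FPKM at 24 h and 136 FPKM at 0 h; it is the highest row of every library, so quantile normalization gives it the same value in all of them and cannot show a change. *AC006064.4*, opposite *GAPDH*, was at 25628, 32567, 27115 and 22132 FPKM at 24 h against 63174, 78478, 59862 and 60805 FPKM at 0 h (-1.29 ± 0.14, adjusted p = 4.67e-06). *AL662797.1*, opposite the beta tubulin gene *TUBB*, changed by -1.02 ± 0.13. In the other direction, the rows opposite *SQSTM1* (*MRNIP*, 1.19 ± 0.16), *HYOU1* (*AP003392.3*, 0.87 ± 0.17) and the intermediate filament gene *VIM* (*VIM-AS1*, 1.12 ± 0.19) rose. Of 174 called antisense rows over a protein-coding gene, 32 rose and 142 fell. The gene's own row was tested for 170 of them, and was called in the same direction for 10 and in the opposite direction for 3.

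**Figure D4:**
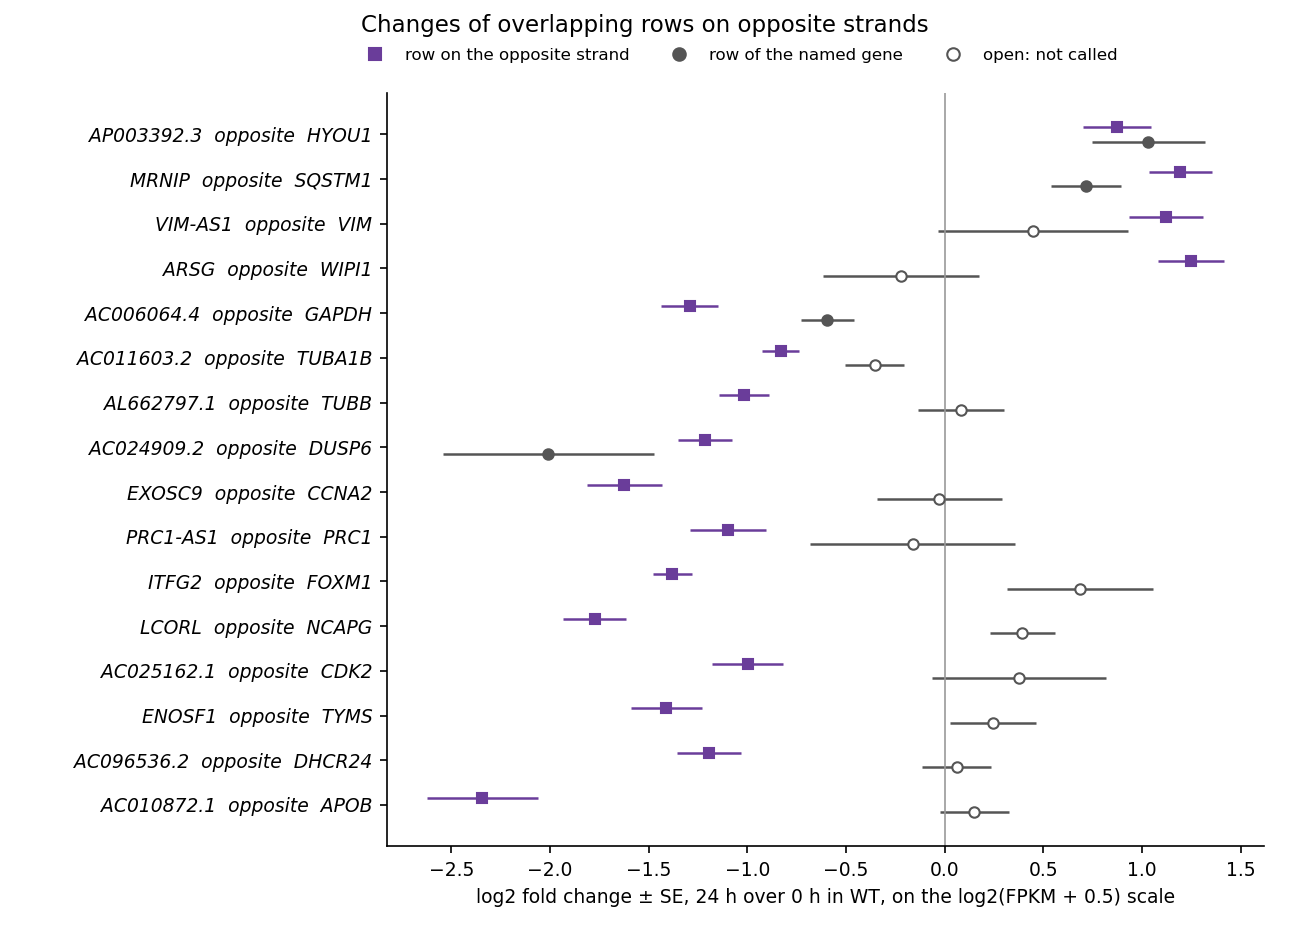
log2 fold change ± SE, 24 h over 0 h in WT, for 16 pairs of overlapping rows on opposite strands, chosen after their values were seen. Squares are the row opposite the named gene and circles the gene's own row, filled where called; *SQSTM1*, *HYOU1*, *GAPDH* and *DUSP6* are called in both rows with the same sign, and the other 12 in the opposite row alone.

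The KO cells had the same treatment, in libraries of their own fitted in the same model. Their own comparison of 24 h with 0 h called 973 genes (5.64%), 368 higher (2.13%) and 605 lower (3.51%). Both genotypes called 432 genes, all with the same sign, which are 61.6% of the WT calls and 44.4% of the KO calls. Of the 701 WT calls 672 (95.9%) had the same sign in KO. The median change of the 252 genes called higher in WT was 1.67 in WT and 1.09 in KO, and of the 449 called lower -0.98 and -0.85; the WT values are those that chose the genes. *HSPA5* changed by 1.41 in WT and 1.50 in KO, *PPP1R15A* by 2.84 and 3.05, *AREG* by 4.79 and 5.25 and *RNF224* by 3.51 and 3.49.

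The test of the difference between the responses (WT minus KO, limma) called 0 genes, with 950 (5.51%) at an unadjusted p under 0.05, and 2 when fitted to the 4 groups alone. *SCAMP3* (-3.92 in WT, -0.40 in KO; unadjusted p = 8.2e-05 for the difference), *REPS1*° (-4.49 and 0.40; 0.00017), *MT-ND5* (1.88 and 0.92; 2.9e-05) and *MT-CO3* (2.17 and 1.38; 9.1e-05) were called in WT and had low p in that test. None passed adjustment over all genes.

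**Figure D5:**
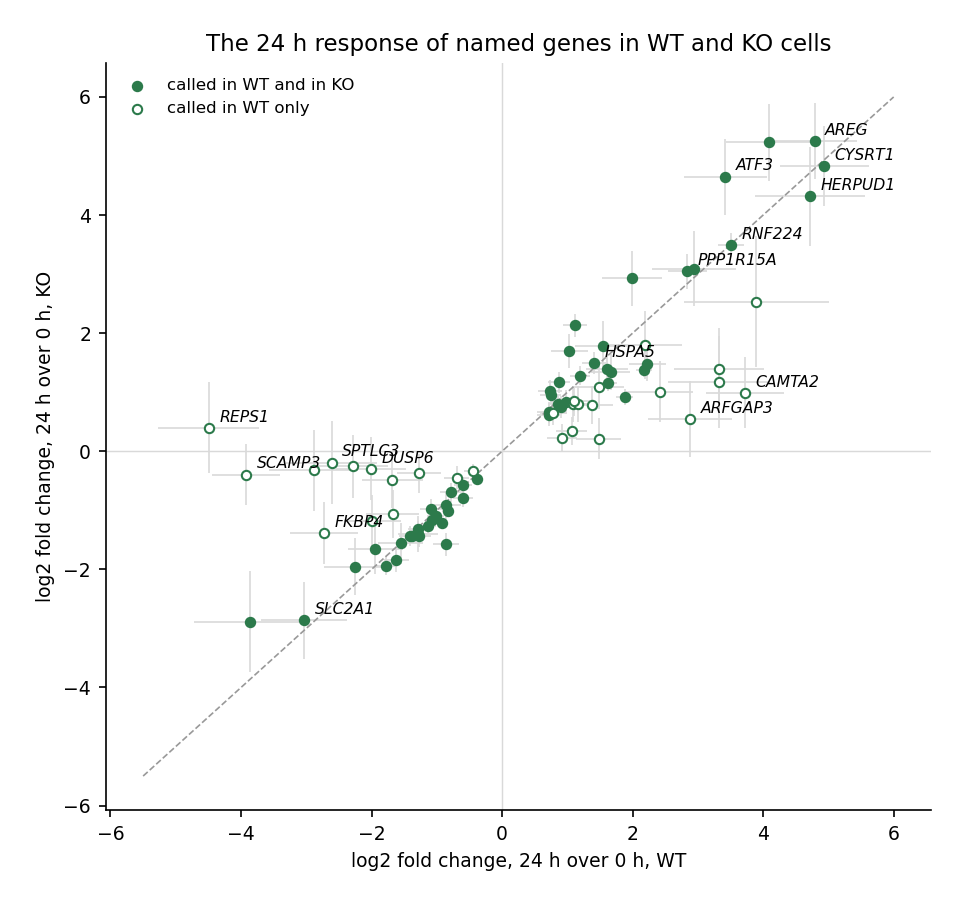
log2 fold change, 24 h over 0 h, in WT (x axis) and in KO (y axis) with SE bars, for 81 genes called in WT and named here or in the tables behind this text, without those listed at 0 in a whole group. Filled points (52) were also called in KO; *REPS1* and *SCAMP3* lie far from the dashed line of equal change, and the difference between genotypes passed adjustment for no gene.

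Few genes separated WT cells at 48 h from those at 24 h, a comparison that shares the 24 h libraries. A total of 21 were called (0.122%), with 10 higher (0.058%) and 11 lower (0.0638%) at 48 h. *MT-CO3* was listed at 0 at 48 h in every WT library. *RNF224* went further, with means of 185 FPKM at 48 h and 80.6 FPKM at 24 h (adjusted p = 0.012), and *SCAMP3* stood at 5.61 FPKM at 48 h and 0.569 FPKM at 24 h (adjusted p = 0.016). *APOA2*, the second apolipoprotein of high-density lipoprotein, averaged 455 FPKM at 48 h, against 169 FPKM at 24 h (adjusted p = 0.0015). At 24 h against 0 h it changed by 0.61 ± 0.20 (adjusted p = 0.098; 0.046 and 0.031 with the rescalings). *HSPA5* and *PPP1R15A* averaged 122 and 23.9 FPKM at 48 h against 152 and 45.4 FPKM at 24 h, differences that were not called.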

How the data were processed

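RNA of Huh7 cells was made into libraries with a strand-keeping Illumina mRNA kit, per the labels' protocols. The authors deposited 1 table of FPKM values per gene and library; the submitters' processing notes name STAR, Cufflinks, Cuffdiff and GRCh38 without versions, and the strand setting and any scaling between libraries are not given in the sources used here. The table has 58024 Ensembl IDs, of which 45 pseudoautosomal copies on chromosome Y were left out; GENCODE release 29 matched 57375 IDs. FPKM are not counts, so no count test was used. The 17252 genes whose mean across libraries reached 0.5 FPKM were tested as log2(FPKM + 0.5) in limma 3.58.1 (R 4.3.3) with a variance trend, on 6 group means (18 residual degrees of freedom, prior 4.63), and p-values were adjusted by Benjamini-Hochberg over all genes tested. Shares were compared by exact permutation tests. The fit was also run on simulated data, in which only genes well above the floor at 0 h were changed. That run held no shift in the make-up of the libraries and no mixing of strands. It therefore does not bear on low genes, genes listed at 0 in a group or the scaling. Tables and plots used Python 3.11.15, pandas 2.3.3, scipy 1.17.1 and matplotlib 3.10.9.

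The members, gene lists and tests were chosen with earlier results of these data known, and 2 of the symbols in the 40 lists were not found in the table. Named genes are the called members of each list and those with the lowest p where fewer than 3 were called. To these were added the 12 highest and 12 lowest folds of protein-coding genes without opposite-strand overlap (groups apart, at least 5 FPKM in the higher group), 6 and 6 of other genes and the 8 highest and 8 lowest limma t at 20 FPKM or more (both without clone-type or antisense names), and called genes with a low p for the difference between genotypes; not all are printed. Outside that rule, antisense-annotated rows, pairs of rows, and *XBP1*, *MANF*, *ATF4*, *TRIB3*, *GDF15*, *NQO1*, *EGFR*, *CXCL8*, *CPT1A*, *SCD*, *LDHA*, *FOS*, *EGR1*, *ALB*, *GPC3* and *EEF1A1*, printed as well-known genes, were chosen after their values were seen. Alternatives changed the pseudocount (0.1 or 1), the floor (none or 2 FPKM), the scaling (median-of-ratios or quantile), the samples fitted (those compared, or each library left out in turn), the variance model (untrended, robust or with array weights), a block for the replicate number, and the genes (none overlapping another on the opposite strand). Replicates correlated at 0.821 to 0.862 (Pearson) across genes of at least 20 FPKM at 24 h and 0.844 to 0.860 at 0 h, and no libraries held identical values.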

Additional observations from a re-analysis of the deposited data

Results flagged for a closer look

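In 20 of the 224 groups of 4 values checked, 1 library lay far from the other 3 (8.93%). Chance flags about 1 in 20 groups, a rate that does not apply to 8 of the 20, where 1 value above 0 stands against 3 zeros and always meets the criterion. At 0 h, *HERPUD1* (4.31 FPKM in replicate 1), *NUPR1* (0.41 in replicate 0), *AREG* (3.45 in replicate 2), and *BMF* (0.411), *HSF2* (2.16) and *LILRB3* (3.8) in replicate 3 were the lone values above 0, and *KIAA0930* was at 3.54 FPKM in replicate 3 against at most 0.265 FPKM. Also at 0 h, *NQO1* (20.5 FPKM in replicate 0), *INCENP* (28.2 in replicate 1), *NAGS* (23.8 in replicate 2) and *RPS27A* (121 in replicate 2) were high in 1 library.

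At 24 h, *SCAMP3* (2.28 FPKM in replicate 3) and *JAKMIP2* (1.02 in replicate 0) were above 0 in 1 library. *SRXN1* (16.6 in replicate 2), *NR1I3* (331 in replicate 1), *LDHA* (175 in replicate 0), *MT-CO3* (5370 in replicate 3), *MT-CYB* (3416 in replicate 3) and *VIM-AS1* (6684 in replicate 0, against 3724 to 3798 FPKM in the other 3) were high in 1 library, and *IL32* was low at 8.22 FPKM in replicate 1. No gene passed the adjusted limma test of a difference between the WT and KO responses.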

How the results depend on the processing

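For WT at 24 h against 0 h the count of 701 calls was 355 in a fit of only these groups, 334 without a variance trend and 104 among genes without opposite-strand overlap, and 453 to 684 with 1 library left out. For KO, 973 calls became 617, 639 and 196 under the same settings and 708 to 939 with 1 library left out. The difference between the responses had 0 calls, 2 in a fit of only the groups compared and 0 to 2 with 1 library left out. The 21 calls of 48 h against 24 h were 43 with quantile normalization, 12 in the groups alone, 4 without a variance trend, 10 without overlapping genes, 36 with the replicate block and 6 to 26 with 1 library left out. The mitochondrial share differed by 8.4 to 9.13 percentage points and the antisense share by -10.6 to -9.37 with 1 library left out, where the smallest possible exact permutation p is 0.0571. Without the 10 highest antisense-annotated genes the antisense share was 34.0% at 24 h and 40.2% at 0 h, a difference of -6.2 points. Same-numbered libraries at 24 h and 0 h in WT correlated at -0.03 to 0.01 in their deviations, so the numbers do not pair them; with the replicate block 740 genes were called. Among 112 genes recomputed under each setting none of the 84 called changed sign; the call was lost in 125 gene and fit combinations with 1 library left out and in 109 with other settings. The fragments placed per library, 399202 to 649351 in these 8, limit what low genes can show, since values near 1 FPKM rest on about 1 fragment of a 2 kb transcript.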
